A study of Rattus norvegicus with 18 samples.

Results

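The unfolded protein response and the heat shock response were examined as a set of 36 listed genes in rat hippocampal neurons grown in dissociated culture. The genes were chosen by symbol from the platform annotation of an Affymetrix array, with 1 probe set (short probes for 1 transcript, summarised as 1 signal) kept per gene, the probe set of highest mean signal. Of the 36 genes, 34 had a probe set that carried 1 gene symbol, and all 34 passed the filter on dim signals, among 14218 genes with such a probe set and 10934 genes tested. Ern1 had no such probe set, and the only probe set of Hspa8 carried several symbols, so neither has a value here. The 18 arrays form 6 groups of 3. The RNAi arm carried lentiviral shRNAs against the transcription factors of the MEF2 family and was sampled after 0, 1 and 6 h in 55 mM KCl, which depolarizes the membrane. The control arm carried lentiviral control shRNAs and was sampled at the same times. Every group, 0 h included, received the virus on day 3 of culture and had AP5, a blocker of NMDA receptors, and TTX, a blocker of voltage-gated sodium channels, on the cells for 1 h on day 10 before any KCl. Arrays are named biological replicates in the labels, which say nothing of separate cultures, so p-values measure the spread between these arrays.

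Proteins that fail to fold in the endoplasmic reticulum (ER) are sensed by Ern1, Eif2ak3 (PERK) and Atf6, which act through the transcription factors Xbp1, Atf4 and cleaved Atf6. Xbp1 and Atf6 are known for inducing ER chaperones and the machinery of ER-associated degradation. Phosphorylation of the initiation factor eIF2 by PERK, or by kinases that sense other stresses, slows translation while Atf4 is made, and Atf4 target genes form the integrated stress response. Hsf1 drives cytosolic heat shock proteins when unfolded protein builds up in the cytosol.

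Array medians ran from 240 to 248 and the correlation across probe sets was 0.993 to 0.998 within groups. Mef2a, a target of the shRNAs, stood in the RNAi arm at 32.8%, 26.5% and 27.6% of the control arm at 0, 1 and 6 h. Mef2d stood at 69.5%, 74.7% and 67.5%. All 10 neuron markers listed were tested, and their summed signal was 55694 to 66043 in RNAi arrays and 61754 to 68057 in control arrays. Astrocyte markers, all 8 of them tested, summed to 43987 to 54645 in RNAi arrays and 36744 to 48914 in control arrays, and none was at the floor of 72.6. Oligodendrocyte lineage markers (5 of 8 tested, Mog at the floor on every array) summed to 8567 to 15812 and 7971 to 14304. Microglia markers (6 of 8 tested) summed to 1530 to 1801 in RNAi arrays and 1513 to 1811 in control arrays. Endothelial and fibroblast markers (6 of 8 tested, Pecam1 at the floor on every array) summed to 1933 to 3052 in RNAi arrays and 3109 to 4010 in control arrays. In RNA from a whole culture, fewer cells of a type and less RNA per cell cannot be told apart.

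The first question was how these genes respond to depolarization. After 1 h of KCl the same 5 members were higher in each arm: Atf4, Herpud1, Chac1, Ppp1r15a and Dnajb1. The largest rises at 6 h in each arm were those of Chac1 and Ppp1r15a, targets of the integrated stress response, and of Herpud1, while most ER chaperones did not pass the test and Hspb1, Pdia6 and Eif2ak3 were lower in both arms. Calls were made where the adjusted p was below 0.05 (limma, all 18 arrays in 1 fit, adjusted over the 10934 genes). In the RNAi arm 5 of 34 members were called higher and 0 lower at 1 h against 0 h, where 1.23% and 2.64% of all genes were called. In the control arm 5 were called higher and 0 lower, against 1.19% and 1.51% of all genes. At 6 h against 0 h, 12 were called higher and 4 lower in the RNAi arm, against 14.7% and 25.3% of all genes. Over the same time 13 were called higher and 5 lower in the control arm, against 16.1% and 25.5% of all genes. Between 1 h and 6 h in the control arm, 10 were higher and 2 lower at 6 h, against 15% and 20.4%. The 10 were Atf6, Ddit3, Hsf1, Herpud1, Edem1, Chac1, Asns, Sesn2, Ddit4 and Hsph1, and the 2 were Eif2ak3 and Ppp1r15a. In that comparison Eif2ak3 was lost without control 1 h replicate 1 or control 6 h replicate 1 or 2 (adjusted p = 0.0608 to 0.112). Atf6 was lost there without control 1 h replicate 2 or 3 or control 6 h replicate 1 or 3 (adjusted p = 0.0713 to 0.161), and Ddit4 without control 1 h replicate 2 or 3 or control 6 h replicate 3 (adjusted p = 0.0637 to 0.121). With another normalization, to equal quantiles, higher genes made up 44.2% of all genes called in the RNAi arm at 1 h, against 31.8% as reported.

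Of the members called higher at 6 h, 10 were shared by the arms, which is 10 of the 12 in the RNAi arm and 10 of the 13 in the control arm. Over all genes, those called higher in both arms made up 76.1% of the RNAi-arm list and 69.6% of the control-arm list. The 10 members were Atf4, Hsf1, Dnajc3, Herpud1, Chac1, Ppp1r15a, Asns, Hsph1, Dnajb1 and Dnaja1. Eif2ak3, Pdia6 and Hspb1 were called lower in both arms. They are 3 of 4 members called lower in the RNAi arm and 3 of 5 in the control arm. Over all genes, those called lower in both arms made up 80.7% of the RNAi-arm list and 80.2% of the control-arm list. The overlap over all genes at 1 h is not given here. The median log2 difference over the 34 members at 6 h was 0.08 in the RNAi arm and 0.12 in the control arm, beside medians over all genes of -0.02 in each. The arrays are numbered 1 to 3 in each group, and same-numbered arrays deviated from their group means together. With that number as a block, Trib3 and Sesn2 were also called higher at 6 h in the RNAi arm (adjusted p = 0.00678 to 0.0335 with the block, 0.0749 to 0.104 without it, and 0.00678 to 0.394 over all alternatives). In the control arm the block added Ddit3, Edem1 and Trib3 as higher and Pdia4 and Manf as lower at 6 h (adjusted p = 0.0034 to 0.0483 with the block, 0.0543 to 0.0905 without it, and 0.000768 to 0.384 over all alternatives). Between 1 h and 6 h it added Dnajc3 and Trib3 as higher and Pdia6, Dnajb9 and Sdf2l1 as lower (adjusted p = 0.0035 to 0.0476 with the block, 0.0639 to 0.0841 without it, and 0.0035 to 0.334 over all alternatives). In the 1 h count of the control arm, leaving out control 0 h replicate 1, or fitting only the 2 groups compared, left 2 members called, and leaving out control 1 h replicate 1 or 3 left 3.

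**Figure D1:**
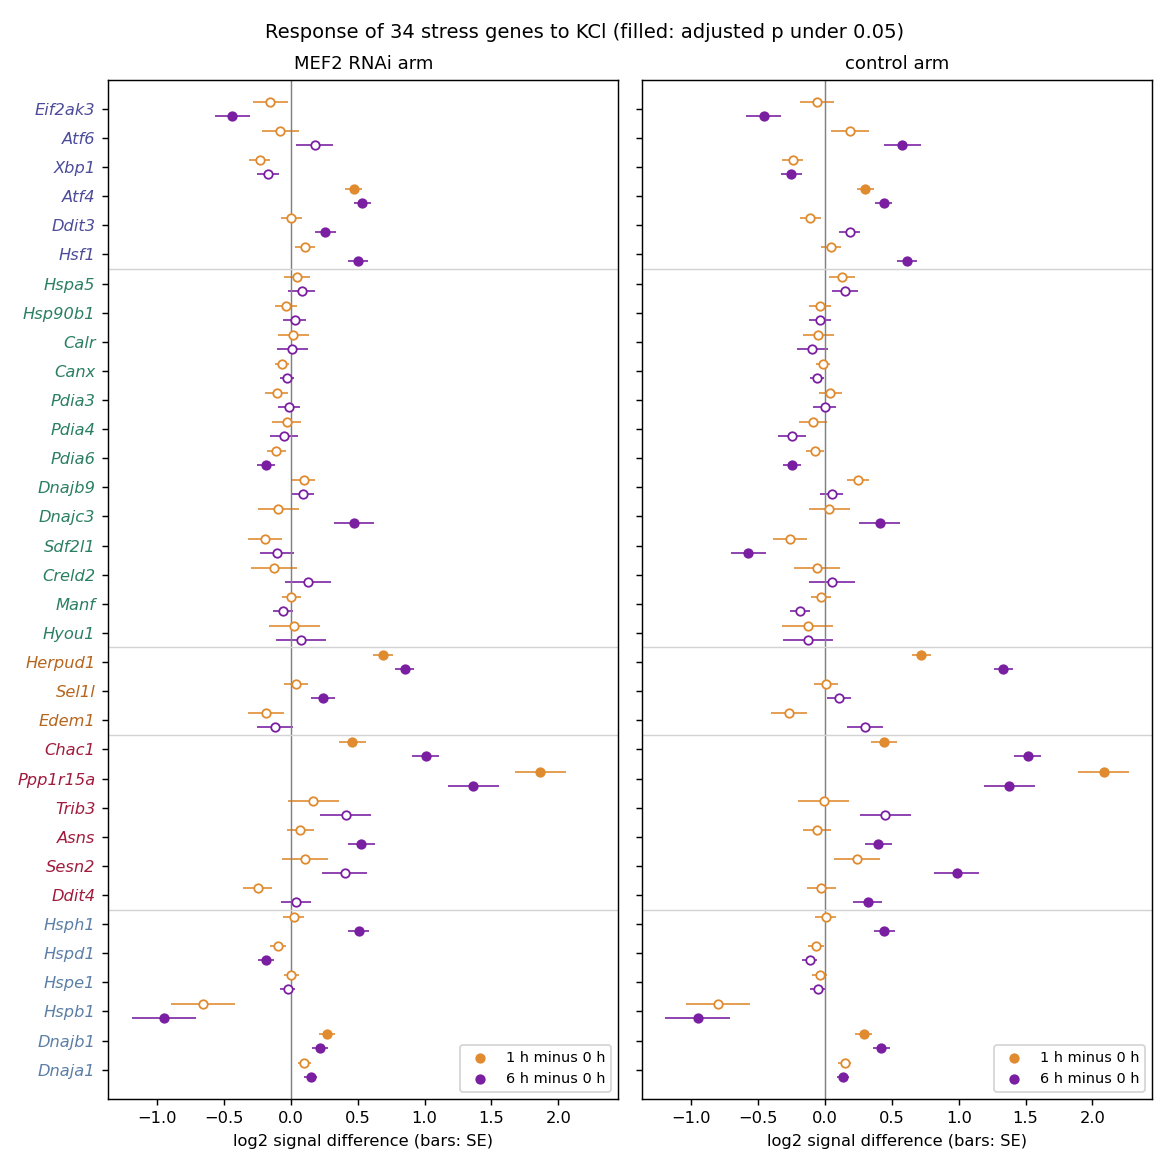
Log2 signal difference (x axis, bars are standard errors) of 1 h and 6 h of KCl against 0 h for the 34 members with a value, in the RNAi arm and in the control arm. Filled points passed an adjusted p of 0.05. Gene names are coloured by role and run from sensors and factors at the top through ER chaperones, ER-associated degradation and targets of the integrated stress response to heat shock proteins. Ppp1r15a lies farthest right at 1 h (1.86 in the RNAi arm and 2.08 in the control arm), and among the 13 ER chaperones Dnajc3, Pdia6 and Sdf2l1 have filled points.

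Promoters were read from RefSeq (rat assembly GRCr8) for the 29 members that the table holds, as the 250 bases before each annotated start. Ern1, Atf6, Hsf1, Pdia3, Pdia6, Manf and Hspa8 are named only. Both strands were searched for 6 known binding motifs, of which the CRE is not assigned here to a factor named above. They are the ER stress elements ERSE (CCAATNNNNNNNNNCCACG) and ERSE-II (ATTGGNCCACG), which Atf6 and Xbp1 bind with a partner, the unfolded protein response element UPRE (TGACGTGG), the element CARE of Atf4 with C/EBP proteins (TGATGNAA), the heat shock element HSE (GAANNTTCNNGAA) and the cAMP response element CRE (TGACGTCA). ERSE was found in 7 of the 29 member promoters (24.1%) and in 0.0657% of all 33469 promoters. ERSE-II was found in 2 (0.0418% of all promoters), UPRE in 1 (0.52%), CARE in 3 (3.4%), HSE in 3 (0.663%) and CRE in 1 (1.59%). The members were listed as known genes of these responses, so the shares describe the list and are not a test. The promoters of 5 members are printed to show an ERSE, an ERSE-II, a CARE, an HSE and a CRE beside the response of the gene, 5′ to 3′ on the gene's own strand with the motifs in capitals.
Herpud1: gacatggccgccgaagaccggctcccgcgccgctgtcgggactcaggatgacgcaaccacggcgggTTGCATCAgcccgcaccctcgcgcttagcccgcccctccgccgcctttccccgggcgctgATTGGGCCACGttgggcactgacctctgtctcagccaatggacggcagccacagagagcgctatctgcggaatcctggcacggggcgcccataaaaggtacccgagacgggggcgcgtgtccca
Chac1: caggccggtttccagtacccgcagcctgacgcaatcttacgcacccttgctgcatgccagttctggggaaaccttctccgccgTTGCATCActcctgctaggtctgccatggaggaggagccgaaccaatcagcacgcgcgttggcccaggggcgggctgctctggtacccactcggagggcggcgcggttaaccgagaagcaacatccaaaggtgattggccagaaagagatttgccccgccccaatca
Ppp1r15a: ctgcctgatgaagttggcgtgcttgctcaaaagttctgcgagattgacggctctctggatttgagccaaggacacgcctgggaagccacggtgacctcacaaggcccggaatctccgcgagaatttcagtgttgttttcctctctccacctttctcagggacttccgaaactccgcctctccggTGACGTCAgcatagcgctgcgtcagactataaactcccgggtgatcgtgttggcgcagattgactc
Hspa5: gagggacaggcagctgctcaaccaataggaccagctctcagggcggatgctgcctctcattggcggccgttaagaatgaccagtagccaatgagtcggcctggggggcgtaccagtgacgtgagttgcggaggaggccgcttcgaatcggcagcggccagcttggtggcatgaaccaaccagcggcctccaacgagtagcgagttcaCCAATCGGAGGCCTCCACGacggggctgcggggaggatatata
Hsph1: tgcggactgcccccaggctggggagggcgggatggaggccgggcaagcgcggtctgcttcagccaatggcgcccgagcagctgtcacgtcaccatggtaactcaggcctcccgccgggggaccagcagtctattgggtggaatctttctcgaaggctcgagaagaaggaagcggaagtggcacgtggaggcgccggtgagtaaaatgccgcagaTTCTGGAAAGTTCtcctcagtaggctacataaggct

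The Herpud1 sequence (chr19:10614708-10614957, minus strand) holds a CARE on its other strand, 184 to 177 bases before the start, and an ERSE-II 124 to 114 bases before it. The Chac1 sequence (chr3:126795881-126796130, plus strand) holds a CARE on its other strand 167 to 160 bases before the start. The Ppp1r15a sequence (chr1:105139597-105139846, minus strand) holds a CRE 66 to 59 bases before the start. The Hspa5 sequence (chr3:38452766-38453015, plus strand) holds an ERSE 43 to 25 bases before the start. The Hsph1 sequence (chr12:10427118-10427367, plus strand) holds an HSE on its other strand 36 to 24 bases before the start. Of the 7 members with an ERSE, Dnajc3 was called higher and Xbp1 lower after 6 h of KCl in the control arm, and Hspa5, Hsp90b1, Calr, Canx and Creld2 were not called. Among the 3 with a CARE, Chac1 and Herpud1 were called higher and Trib3, by the probe set used, was called with the replicate block and not without it. Hyou1, with 2 ERSE-II matches, the farther of which overlaps a UPRE, was not called. Hspd1 and Hspe1 lie head to head on chromosome 9, so their windows overlap and hold the same pair of HSE matches; neither was called there. A match is a description of letters in the window, and 14 of the 29 windows held none of the 6 motifs, those of Atf4, Asns, Sesn2 and Dnajb1 among them.

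**Figure D2:**
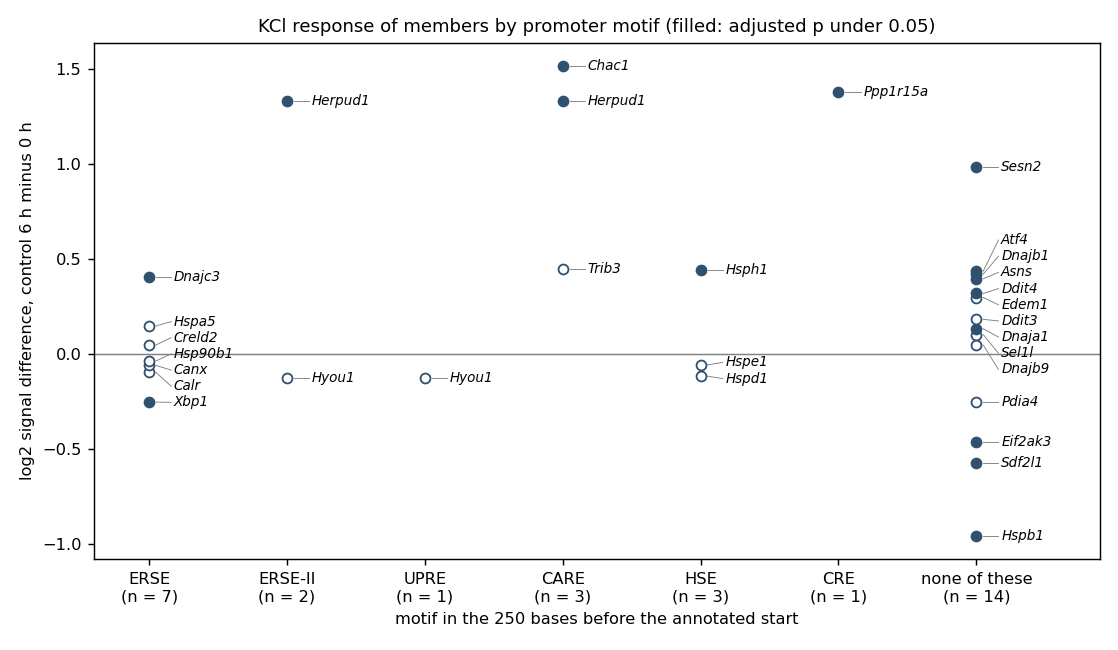
Log2 signal difference after 6 h of KCl in the control arm (y axis) for the 29 members with a promoter sequence, by the motif found in the 250 bases before the start (x axis); Herpud1 and Hyou1 appear under 2 motifs. Filled points passed an adjusted p of 0.05. The 7 ERSE genes lie between -0.25 (Xbp1) and 0.41 (Dnajc3), and Herpud1, Chac1 and Ppp1r15a lie at 1.33, 1.51 and 1.38.

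Among the sensors and transcription factors, Atf4 rose at 1 h and 6 h of KCl and Hsf1 at 6 h in both arms, and Eif2ak3 fell at 6 h. Atf4 encodes the factor whose translation is raised when eIF2 is phosphorylated. Atf4 signals in RNAi arrays were 7488, 7741 and 8750 at 0 h, 10982, 10942 and 11187 at 1 h, and 11460, 11787 and 11415 at 6 h. Control-arm signals of Atf4 were 8598, 8942 and 9078 at 0 h, 10988, 10794 and 11012 at 1 h, and 12013, 12857 and 11225 at 6 h. Every KCl array was above every 0 h array of its arm. The 1 h rise was 1.38-fold in the RNAi arm (log2 difference 0.47, SE 0.06, adjusted p = 0.000226) and 1.23-fold in the control arm (log2 difference 0.30, SE 0.06, adjusted p = 0.012), and the 6 h rise was 1.45-fold (adjusted p = 5.47e-06) and 1.35-fold (adjusted p = 3.48e-05). The control-arm call at 1 h was lost without control 0 h replicate 1 or control 1 h replicate 3 (adjusted p = 0.0508 to 0.0547).

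Hsf1 encodes the main factor of the heat shock response. Hsf1 signals in RNAi arrays were 771, 851 and 814 at 0 h, 846, 929 and 840 at 1 h, and 1070, 1186 and 1199 at 6 h. Control-arm signals of Hsf1 were 641, 708 and 661 at 0 h, 643, 674 and 760 at 1 h, and 958, 1041 and 1073 at 6 h. The 6 h arrays were above all 0 h and 1 h arrays of their arm, whereas the 1 h arrays overlapped those of 0 h. The 6 h rise was 1.42-fold in the RNAi arm (log2 difference 0.50, SE 0.08, adjusted p = 6.41e-05) and 1.53-fold in the control arm (log2 difference 0.61, SE 0.08, adjusted p = 8.72e-06). Hsf1 was also higher with RNAi before KCl, without overlap (log2 difference 0.28, SE 0.08, adjusted p = 0.0208), and at 1 h (log2 difference 0.33, SE 0.08, adjusted p = 0.00605). At 6 h the arms overlapped and the difference was called only with the replicate block (log2 difference 0.17, SE 0.08, adjusted p = 0.145; 0.0396 as the adjusted p with the block, 0.0396 to 0.367 over all alternatives). The call at 0 h was lost without control 0 h replicate 1 or 3 or RNAi 0 h replicate 2 or 3 (adjusted p = 0.059 to 0.0822).

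Atf6 is an ER membrane protein that is cleaved to a transcription factor under stress. Atf6 signals in RNAi arrays were 927, 872 and 949 at 0 h, 761, 923 and 925 at 1 h, and 969, 1045 and 1094 at 6 h. Control-arm signals of Atf6 were 711, 994 and 1057 at 0 h, 1153, 905 and 1056 at 1 h, and 1465, 1140 and 1487 at 6 h. At 6 h each control array was above all control arrays of 0 h, and the rise was 1.49-fold (log2 difference 0.58, SE 0.14, adjusted p = 0.00342). In the RNAi arm the 6 h difference was 0.18 (SE 0.14, adjusted p = 0.343). The responses of the arms differed by -0.40 (95% interval -0.82 to 0.02, adjusted p = 0.634), which did not pass the test. At 6 h the RNAi arrays were all below the control arrays (log2 difference -0.39, SE 0.14, adjusted p = 0.0699), a difference called only with the replicate block (adjusted p = 0.032, 0.032 to 0.221 over all alternatives).

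Eif2ak3 encodes PERK, the kinase that phosphorylates eIF2. Eif2ak3 signals in RNAi arrays were 1076, 1498 and 1608 at 0 h, 1149, 1187 and 1373 at 1 h, and 902, 995 and 1159 at 6 h. Control-arm signals of Eif2ak3 were 1109, 1152 and 1040 at 0 h, 1189, 997 and 987 at 1 h, and 773, 798 and 827 at 6 h. After 6 h the control arrays were all below those of 0 h (log2 difference -0.46, SE 0.13, adjusted p = 0.00957). In the RNAi arm the 6 h arrays overlapped those of 0 h (log2 difference -0.44, SE 0.13, adjusted p = 0.0132), and its call was lost without RNAi 0 h replicate 2 or 3 or RNAi 6 h replicate 1 (adjusted p = 0.0601 to 0.0766). Averaged over the 3 times, Eif2ak3 was higher with RNAi (log2 difference 0.30, SE 0.08, adjusted p = 0.00532). Ddit3 encodes CHOP, a factor that Atf4 induces under prolonged stress. Ddit3 signals in RNAi arrays were 850, 847 and 1023 at 0 h, 865, 875 and 980 at 1 h, and 1069, 1153 and 1018 at 6 h. Control-arm signals of Ddit3 were 784, 814 and 904 at 0 h, 789, 768 and 758 at 1 h, and 930, 922 and 986 at 6 h. Its 6 h rise was called in the RNAi arm (log2 difference 0.26, SE 0.08, adjusted p = 0.0184), where 1 array of 0 h lay above 1 of 6 h, and lost without RNAi 0 h replicate 1 or 2 or RNAi 6 h replicate 2 (adjusted p = 0.0702 to 0.0847). In the control arm all 6 h arrays were above those of 0 h, but the difference was not called (log2 difference 0.18, SE 0.08, adjusted p = 0.0824). With RNAi Ddit3 was higher over the average of times (log2 difference 0.18, SE 0.05, adjusted p = 0.00629). Xbp1 averaged 4442 ± 165 at 6 h and 5006 ± 147 at 0 h in the RNAi arm, and 4055 ± 522 at 6 h and 4808 ± 285 at 0 h in the control arm (SD, n = 3). Its 6 h difference was called lower in the control arm (log2 difference -0.25, SE 0.08, adjusted p = 0.0174), although arrays overlapped, and the call was lost without control 0 h replicate 1 or 2 or control 6 h replicate 1 or 2 (adjusted p = 0.0595 to 0.0919). In the RNAi arm all 6 h arrays (4335 to 4632) were below those of 0 h (4884 to 5169), but the difference was not called. At 1 h all Xbp1 arrays were below those of 0 h too, at 4244 to 4262 in the RNAi arm. In the control arm they were at 3898 to 4393, against 4479 to 4982 at 0 h. Neither 1 h difference was called. The probe set does not show which splice form of Xbp1 was present.

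The ER chaperones and folding enzymes numbered 13. None was called at 1 h in either arm. At 6 h 1 was called higher and 1 lower in the RNAi arm, against 14.7% and 25.3% of all genes, and 1 higher and 2 lower in the control arm, against 16.1% and 25.5%. The medians of the 13 log2 differences at 6 h were 0.01 in the RNAi arm and -0.06 in the control arm. Hspa5 (BiP), the ER member of the HSP70 family that holds the sensors inactive, averaged 8772 ± 1035 at 6 h and 8274 ± 294 at 0 h in the RNAi arm, and 9340 ± 1418 at 6 h and 8377 ± 561 at 0 h in the control arm (SD, n = 3). Its 6 h difference was 0.08 in the RNAi arm (95% interval -0.13 to 0.29) and 0.15 in the control arm (-0.06 to 0.36). Hsp90b1 (GRP94), the ER member of the HSP90 family, averaged 6493 ± 723 at 6 h and 6362 ± 459 at 0 h in the RNAi arm, and 6337 ± 485 at 6 h and 6482 ± 158 at 0 h in the control arm. Calr, a soluble lectin chaperone that buffers calcium, averaged 4911 ± 610 at 6 h and 4872 ± 468 at 0 h in the RNAi arm, and 4461 ± 132 at 6 h and 4771 ± 248 at 0 h in the control arm. For Hsp90b1 the 95% interval of the 6 h difference was -0.15 to 0.20 with RNAi, against -0.21 to 0.14 with control shRNAs. For Calr it was -0.24 to 0.26 with RNAi, against -0.34 to 0.15.

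Sdf2l1, a partner of BiP and its co-chaperones, fell with KCl in the control arm. Sdf2l1 signals in RNAi arrays were 1697, 1742 and 1382 at 0 h, 1522, 1451 and 1232 at 1 h, and 1460, 1379 and 1635 at 6 h. Control-arm signals of Sdf2l1 were 2015, 1717 and 1498 at 0 h, 1603, 1427 and 1309 at 1 h, and 1098, 1060 and 1349 at 6 h. At 6 h all control arrays were below those of 0 h, at 0.672 of the 0 h level (log2 difference -0.57, SE 0.13, adjusted p = 0.00203). The RNAi arrays overlapped between 6 h and 0 h (log2 difference -0.10, SE 0.13, adjusted p = 0.562). The difference between these responses was 0.47 (95% interval 0.08 to 0.86, adjusted p = 0.476) and did not pass the test. Pdia6, a disulfide isomerase, was lower at 6 h in both arms, with log2 differences of -0.19 in the RNAi arm (adjusted p = 0.04) and -0.25 in the control arm (adjusted p = 0.00851), without overlap in either. The RNAi-arm call was lost without RNAi 0 h replicate 1 or 2 or RNAi 6 h replicate 2 or 3 (adjusted p = 0.0525 to 0.167). Dnajc3 (p58IPK), a co-chaperone that also inhibits PERK, was higher at 6 h, 1.39-fold in the RNAi arm (adjusted p = 0.0212) and 1.33-fold in the control arm (adjusted p = 0.0421). Those calls were lost without RNAi 0 h replicate 2 or 3 or RNAi 6 h replicate 1 or 3 (adjusted p = 0.0523 to 0.086) for the first and without control 0 h replicate 2 or 3 or control 6 h replicate 3 (adjusted p = 0.0936 to 0.236) for the second.

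**Figure D3:**
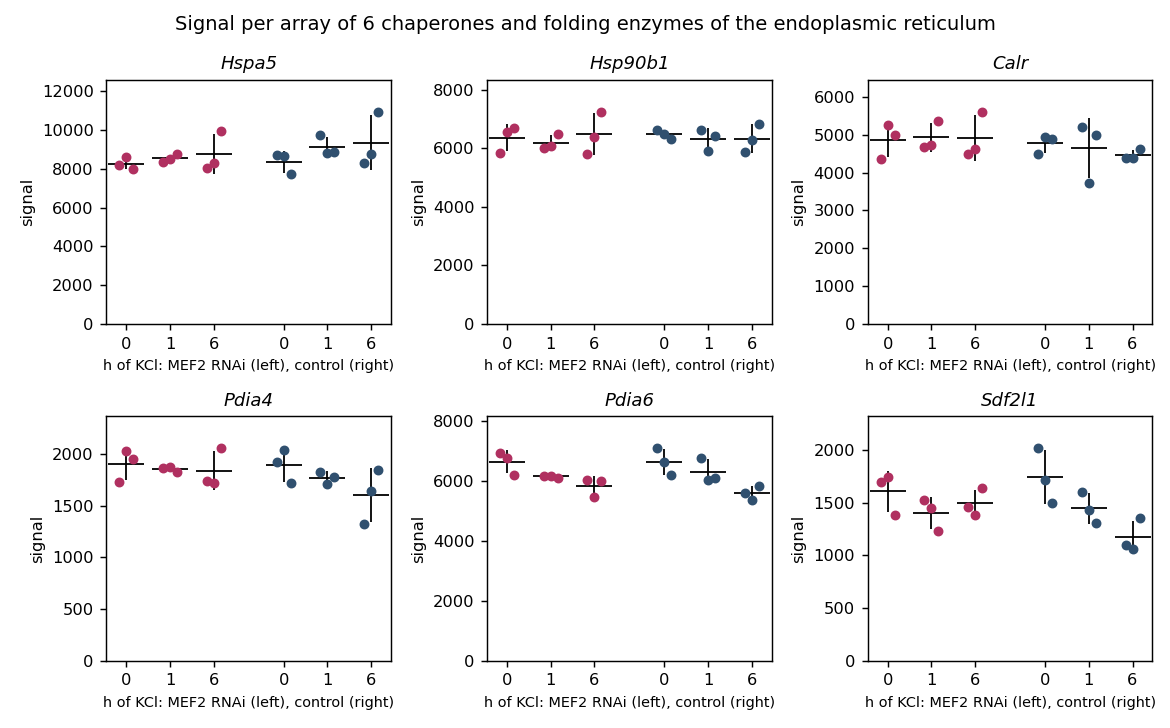
Signal of 6 ER chaperones and folding enzymes on each of the 18 arrays (y axis, linear and from 0; points are arrays, bars the mean and SD of 3), by hours of KCl in the RNAi arm on the left and in the control arm on the right of each panel. Hspa5, Hsp90b1, Calr and Pdia4 overlap between 6 h and 0 h in each arm, whereas control-arm Sdf2l1 lies at 1060 to 1349 at 6 h against 1498 to 2015 at 0 h.

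Canx and Dnajb9 were higher in RNAi arrays. Canx, the membrane-bound lectin chaperone, was called in no comparison of KCl times. Canx signals in RNAi arrays were 7625, 7125 and 7758 at 0 h, 7126, 7042 and 7270 at 1 h, and 7324, 7274 and 7441 at 6 h. Control-arm signals of Canx were 6790, 6679 and 6154 at 0 h, 6605, 6517 and 6261 at 1 h, and 6053, 6344 and 6430 at 6 h. The RNAi arrays were above the control arrays at every time. The difference was called at 0 h (log2 difference 0.20, SE 0.05, adjusted p = 0.0192), at 6 h (log2 difference 0.23, SE 0.05, adjusted p = 0.00783) and over the average of times, 1.14-fold (adjusted p = 0.00015); at 1 h it was 0.15 (adjusted p = 0.0739). The call at 0 h was lost without control 0 h replicate 3 or RNAi 0 h replicate 1 or 3 (adjusted p = 0.0521 to 0.0941), and the calls at 0 h and 6 h, but not that over the average of times, were lost when the signals of all Canx probe sets were averaged. Dnajb9 (ERdj4) is a co-chaperone that returns Ern1 to its resting state. Dnajb9 signals in RNAi arrays were 1668, 1697 and 1963 at 0 h, 1825, 1754 and 2110 at 1 h, and 1839, 1852 and 1963 at 6 h. Control-arm signals of Dnajb9 were 1548, 1515 and 1443 at 0 h, 1914, 1733 and 1704 at 1 h, and 1558, 1419 and 1692 at 6 h. At 6 h the RNAi arrays were above the control arrays (log2 difference 0.28, SE 0.09, adjusted p = 0.0339), a call lost without control 6 h replicate 1 or 2 or RNAi 6 h replicate 1 or 2 or 3 (adjusted p = 0.0606 to 0.154), and over the average of times the difference was 0.20 (adjusted p = 0.00419). Pdia3, Pdia4, Creld2, Manf and Hyou1 were called in no comparison without the block, with 6 h differences that ran between -0.06 (Manf) and 0.13 (Creld2) for RNAi arrays, and between -0.25 (Pdia4) and 0.05 (Creld2) for control arrays.

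ER-associated degradation, which pulls misfolded proteins back to the cytosol for destruction, was covered by 3 members. Herpud1, a membrane scaffold of the degradation complex, rose with KCl at both times. Herpud1 signals in RNAi arrays were 1357, 1395 and 1590 at 0 h, 2246, 2190 and 2555 at 1 h, and 2626, 2559 and 2627 at 6 h. Control-arm signals of Herpud1 were 1331, 1228 and 1368 at 0 h, 2278, 2042 and 2152 at 1 h, and 3221, 3324 and 3350 at 6 h. No KCl array overlapped the 0 h arrays of its arm, and at 6 h every RNAi array was below every control array. The 1 h rise was 1.61-fold in the RNAi arm (log2 difference 0.69, SE 0.07, adjusted p = 2.59e-05) and 1.65-fold in the control arm (log2 difference 0.72, SE 0.07, adjusted p = 1.33e-05). At 6 h it was 1.8-fold in the RNAi arm (log2 difference 0.85, SE 0.07, adjusted p = 2.85e-07) and 2.52-fold in the control arm (log2 difference 1.33, SE 0.07, adjusted p = 3.92e-09). The arms did not differ by the test at 0 h or 1 h (0.14 and 0.11), and Herpud1 was lower with RNAi at 6 h (log2 difference -0.34, SE 0.07, adjusted p = 0.00459). The difference between the 6 h responses was -0.48 (SE 0.10, 95% interval -0.70 to -0.26). It missed the threshold as reported (adjusted p = 0.0926) and passed with the replicate block (adjusted p = 0.0138, 0.0138 to 0.249 over all alternatives).

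Averaged over the 3 times, Edem1, a lectin that hands misfolded glycoproteins to the degradation complex, was 2.13-fold higher with RNAi, the largest such difference of the 34 members. Edem1 signals in RNAi arrays were 750, 941 and 1067 at 0 h, 695, 838 and 874 at 1 h, and 708, 891 and 931 at 6 h. Control-arm signals of Edem1 were 428, 377 and 384 at 0 h, 308, 369 and 312 at 1 h, and 435, 520 and 509 at 6 h. Each RNAi array was above each control array of its time. The difference was 2.3-fold at 0 h (log2 difference 1.20, SE 0.13, adjusted p = 2.27e-05), 2.43-fold at 1 h (log2 difference 1.28, SE 0.13, adjusted p = 1.32e-05) and 1.72-fold at 6 h (log2 difference 0.78, SE 0.13, adjusted p = 0.00101). A second Edem1 probe set was dimmer; p-values of second probe sets, here and for other genes, are adjusted over the 19567 probe sets tested, in a fit of their own. It gave 262, 234 and 285 at 0 h, 266, 270 and 287 at 1 h, and 347, 345 and 375 at 6 h in RNAi arrays. In control arrays it gave 242, 222 and 205 at 0 h, 204, 250 and 210 at 1 h, and 307, 319 and 340 at 6 h. Its difference over the average of times was 0.23 (adjusted p = 0.00289), against 1.09 for the probe set used, and the 6 h call was lost when probe sets were averaged. The second probe set was also higher at 6 h of KCl in the RNAi arm (0.45, adjusted p = 0.000878) and in the control arm (0.53, adjusted p = 0.000205), where the probe set used gave -0.12 and 0.30 and was not called. Sel1l, the adaptor of the Hrd1 ubiquitin ligase, averaged 1031 ± 81.2 at 6 h and 874 ± 38.4 at 0 h in the RNAi arm, and 896 ± 35.8 at 6 h and 836 ± 83.8 at 0 h in the control arm (SD, n = 3). Its rise was called in the RNAi arm (log2 difference 0.24, SE 0.09, adjusted p = 0.044) and lost without RNAi 0 h replicate 1 or 2 or RNAi 6 h replicate 1 or 3 (adjusted p = 0.0514 to 0.184).

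Of the targets of the integrated stress response at 6 h, 3 of the 6 members were called higher in the RNAi arm and 5 in the control arm, and none lower. Of all genes, 14.7% were higher and 25.3% lower in the RNAi arm, and 16.1% and 25.5% in the control arm. Ppp1r15a (GADD34), which brings a phosphatase to eIF2 and so restores translation, rose most at 1 h. Ppp1r15a signals in RNAi arrays were 568, 679 and 865 at 0 h, 1991, 2589 and 3118 at 1 h, and 1659, 1801 and 1899 at 6 h. Control-arm signals of Ppp1r15a were 366, 428 and 553 at 0 h, 1688, 1663 and 2362 at 1 h, and 1163, 1284 and 1019 at 6 h. All KCl arrays were above the 0 h arrays of their arm. The 1 h rise was 3.64-fold in the RNAi arm (log2 difference 1.86, SE 0.19, adjusted p = 1.78e-05) and 4.24-fold in the control arm (log2 difference 2.08, SE 0.19, adjusted p = 4.37e-06). At 6 h it was 2.57-fold in the RNAi arm (log2 difference 1.36, SE 0.19, adjusted p = 3.59e-05) and 2.6-fold in the control arm (log2 difference 1.38, SE 0.19, adjusted p = 2.89e-05). In the control arm the 6 h arrays were all below those of 1 h (log2 difference -0.71, SE 0.19, adjusted p = 0.00861), a call lost without control 1 h replicate 3 (adjusted p = 0.0515). With RNAi the gene was 1.57-fold higher at 0 h (log2 difference 0.65, SE 0.19, adjusted p = 0.0319) and 1.55-fold higher at 6 h (log2 difference 0.63, SE 0.19, adjusted p = 0.0326). At 1 h the difference was 0.43 (adjusted p = 0.149), called only with the block (adjusted p = 0.0253, 0.0253 to 0.444 over all alternatives). The 0 h and 6 h calls were lost without control 0 h replicate 1 or 2 or RNAi 0 h replicate 2 or 3 (adjusted p = 0.0689 to 0.148) for the first and without control 6 h replicate 1 or 3 or RNAi 6 h replicate 1 or 2 or 3 (adjusted p = 0.0596 to 0.119) for the second.

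Chac1, an enzyme that degrades glutathione, rose at 1 h and further by 6 h. Chac1 signals in RNAi arrays were 3213, 2671 and 3532 at 0 h, 4116, 4222 and 4537 at 1 h, and 7086, 6081 and 5707 at 6 h. Control-arm signals of Chac1 were 2432, 2306 and 2796 at 0 h, 3352, 3353 and 3478 at 1 h, and 7280, 7173 and 7014 at 6 h. At 6 h no array overlapped 0 h or 1 h. The 1 h rise was 1.38-fold in the RNAi arm (adjusted p = 0.0134) and 1.36-fold in the control arm (adjusted p = 0.0215), and these calls were lost without RNAi 0 h replicate 2 or RNAi 1 h replicate 3 (adjusted p = 0.0716 to 0.0764) for the first and without control 0 h replicate 1 or 2 or control 1 h replicate 1 or 2 or 3 (adjusted p = 0.0535 to 0.132) for the second. The 6 h rise was 2.01-fold in the RNAi arm (log2 difference 1.01, SE 0.10, adjusted p = 1.07e-06) and 2.86-fold in the control arm (log2 difference 1.51, SE 0.10, adjusted p = 2e-08). Chac1 was higher with RNAi at 0 h (log2 difference 0.32, SE 0.10, adjusted p = 0.0413) and 1 h (log2 difference 0.34, SE 0.10, adjusted p = 0.0277), and at 6 h the difference was -0.19 (adjusted p = 0.216). Those 2 calls were lost without control 0 h replicate 1 or 2 or RNAi 0 h replicate 1 or 3 (adjusted p = 0.1 to 0.187) for the first and without control 1 h replicate 1 or 2 or RNAi 1 h replicate 2 or 3 (adjusted p = 0.059 to 0.104) for the second. The 6 h responses of the arms differed by -0.51 (95% interval -0.81 to -0.21, adjusted p = 0.223), which did not pass the test.

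**Figure D4:**
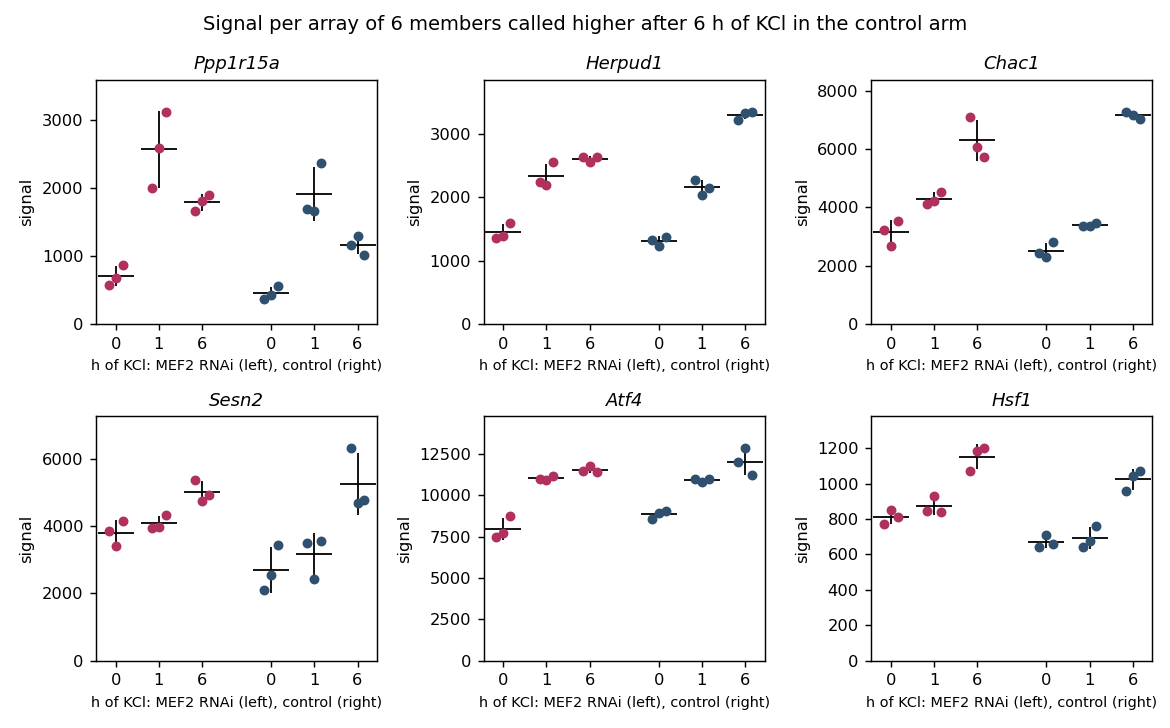
Signal of 6 members on each of the 18 arrays (y axis, linear and from 0; points are arrays, bars the mean and SD of 3), by hours of KCl in the RNAi arm on the left and in the control arm on the right of each panel. Ppp1r15a is highest at 1 h in each arm, Chac1 is highest at 6 h, and 6 h Herpud1 lies at 2559 to 2627 in RNAi arrays against 3221 to 3350 in control arrays.

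Sesn2, which restrains the growth kinase complex mTORC1, rose 1.98-fold in the control arm at 6 h. Sesn2 signals in RNAi arrays were 3851, 3395 and 4157 at 0 h, 3934, 3957 and 4324 at 1 h, and 5364, 4739 and 4916 at 6 h. Control-arm signals of Sesn2 were 2086, 2542 and 3432 at 0 h, 3497, 2423 and 3540 at 1 h, and 6303, 4683 and 4766 at 6 h. The 6 h arrays were above the 0 h arrays in each arm, with a called difference in the control arm (log2 difference 0.98, SE 0.17, adjusted p = 0.000232) and not in the RNAi arm (log2 difference 0.40, SE 0.17, adjusted p = 0.0749; 0.0335 with the block, 0.0125 to 0.223 over all alternatives). The 6 h responses differed by -0.58 (95% interval -1.10 to -0.07, adjusted p = 0.513), not passing the test. Before KCl the RNAi signal was 1.44-fold that of control, with overlap of 1 array (log2 difference 0.53, SE 0.17, adjusted p = 0.0501; 0.0152 with the block, 0.0109 to 0.185 over all alternatives). Averaged over times Sesn2 was called higher with RNAi (log2 difference 0.29, SE 0.10, adjusted p = 0.0314), a call lost without control 0 h replicate 1 or 2 or control 1 h replicate 2 or control 6 h replicate 2 or 3 or RNAi 0 h replicate 1 or 3 or RNAi 1 h replicate 3 or RNAi 6 h replicate 1 (adjusted p = 0.0504 to 0.0651). Asns, asparagine synthetase, rose at 6 h. Asns signals in RNAi arrays were 2600, 2455 and 3143 at 0 h, 2882, 2695 and 2978 at 1 h, and 4362, 3549 and 3858 at 6 h. Control-arm signals of Asns were 3391, 3174 and 3724 at 0 h, 3268, 3021 and 3579 at 1 h, and 4755, 4139 and 4651 at 6 h. The rise was 1.44-fold in the RNAi arm (log2 difference 0.52, SE 0.10, adjusted p = 0.000651) and 1.32-fold in the control arm (log2 difference 0.40, SE 0.10, adjusted p = 0.00505), without overlap. Asns was lower with RNAi at 0 h (log2 difference -0.33, SE 0.10, adjusted p = 0.038), a call lost without control 0 h replicate 1 or 3 or RNAi 0 h replicate 1 or 2 (adjusted p = 0.0701 to 0.153), and over the average of times (log2 difference -0.25, SE 0.06, adjusted p = 0.00347).

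Ddit4 (REDD1), another inhibitor of mTORC1, rose in the control arm at 6 h. Ddit4 signals in RNAi arrays were 4533, 4240 and 4135 at 0 h, 3766, 3346 and 3751 at 1 h, and 4213, 4493 and 4532 at 6 h. Control-arm signals of Ddit4 were 4425, 4238 and 5128 at 0 h, 5534, 3756 and 4370 at 1 h, and 5562, 5602 and 5998 at 6 h. The control arrays of 6 h were above those of 0 h (log2 difference 0.32, SE 0.11, adjusted p = 0.028), and the call was lost without control 0 h replicate 1 or 2 or control 6 h replicate 2 or 3 (adjusted p = 0.052 to 0.112). The RNAi-arm difference at 6 h was 0.04 (95% interval -0.20 to 0.27), and the responses differed by -0.28 (95% interval -0.61 to 0.05, adjusted p = 0.669). At 6 h every RNAi array was below every control array (log2 difference -0.37, SE 0.11, adjusted p = 0.0276), a call lost without control 6 h replicate 2 or 3 or RNAi 6 h replicate 1 or 2 or 3 (adjusted p = 0.053 to 0.0992); over the average of times the difference was -0.26 (adjusted p = 0.00405). Trib3, a pseudokinase that restrains Atf4 and CHOP, averaged 1235 ± 272 at 6 h and 922 ± 107 at 0 h in the RNAi arm, and 1280 ± 264 at 6 h and 933 ± 154 at 0 h in the control arm (SD, n = 3). Its differences of 0.41 in the RNAi arm and 0.45 in the control arm (SE 0.19; adjusted p = 0.104 and 0.0737) were called with the replicate block and not without it (adjusted p = 0.00678 and 0.0034, with 0.00678 to 0.394 and 0.0034 to 0.289 over all alternatives). These are values of the probe set used, and the other 2 Trib3 probe sets were called higher in the control arm without the block (0.77, adjusted p = 0.0367, and 0.81, adjusted p = 0.013).

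Of the 6 heat shock proteins with a value, Hsph1, Dnajb1 and Dnaja1 were higher and Hspb1 lower after 6 h in both arms, and Hspd1 was lower in the RNAi arm. Hsph1 (HSP110), which helps HSP70 proteins exchange their nucleotide, showed no called difference at 1 h. Hsph1 signals in RNAi arrays were 4684, 5041 and 5596 at 0 h, 4807, 5283 and 5414 at 1 h, and 6739, 7565 and 7426 at 6 h. Control-arm signals of Hsph1 were 4541, 5275 and 4890 at 0 h, 4750, 5142 and 4844 at 1 h, and 6242, 6935 and 6796 at 6 h. Each 6 h array was above all 0 h and 1 h arrays of its arm, 1.42-fold in the RNAi arm (log2 difference 0.51, SE 0.08, adjusted p = 9.71e-05) and 1.36-fold in the control arm (log2 difference 0.44, SE 0.08, adjusted p = 0.000297). Dnajb1 (HSP40), the co-chaperone that delivers clients to HSP70, rose at both times. Dnajb1 signals in RNAi arrays were 1997, 2089 and 2076 at 0 h, 2412, 2620 and 2394 at 1 h, and 2419, 2447 and 2292 at 6 h. Control-arm signals of Dnajb1 were 1632, 1836 and 1793 at 0 h, 2232, 2104 and 2081 at 1 h, and 2223, 2416 and 2402 at 6 h. No KCl array overlapped the 0 h arrays. At 1 h the rise was 1.21-fold in the RNAi arm (adjusted p = 0.0185) and 1.22-fold in the control arm (adjusted p = 0.0141). These calls were lost without RNAi 0 h replicate 1 or 3 or RNAi 1 h replicate 2 (adjusted p = 0.0536 to 0.112) for the first and without control 0 h replicate 1 or control 1 h replicate 1 (adjusted p = 0.0595 to 0.0721) for the second. By 6 h it was 1.16-fold in the RNAi arm (adjusted p = 0.00941) and 1.34-fold in the control arm (adjusted p = 4e-05). With RNAi Dnajb1 was higher at 0 h (log2 difference 0.23, SE 0.06, adjusted p = 0.0179) and 1 h (log2 difference 0.21, SE 0.06, adjusted p = 0.0254), and 0.02 at 6 h (adjusted p = 0.855). The first 2 calls were lost without control 0 h replicate 1 or RNAi 0 h replicate 2 or 3 (adjusted p = 0.0574 to 0.0769) for the first and without control 1 h replicate 2 or 3 or RNAi 1 h replicate 2 (adjusted p = 0.0766 to 0.115) for the second, and also when the signals of both Dnajb1 probe sets were averaged.

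Hspb1 (HSP27), a small heat shock protein that holds unfolded proteins and binds the cytoskeleton, fell more than any other member by 6 h. Hspb1 signals in RNAi arrays were 948, 1133 and 1014 at 0 h, 718, 617 and 624 at 1 h, and 433, 539 and 650 at 6 h. Control-arm signals of Hspb1 were 879, 716 and 461 at 0 h, 306, 434 and 411 at 1 h, and 238, 364 and 459 at 6 h. By 6 h all arrays were below those of 0 h in each arm, to 0.518 of the 0 h level in the RNAi arm (log2 difference -0.95, SE 0.24, adjusted p = 0.00479) and 0.516 in the control arm (log2 difference -0.95, SE 0.24, adjusted p = 0.00438). Over the average of times Hspb1 was 1.61-fold higher with RNAi (log2 difference 0.69, SE 0.14, adjusted p = 0.001). By time, the difference was called at 1 h (log2 difference 0.78, SE 0.24, adjusted p = 0.0354), and missed the threshold at 0 h (0.64, adjusted p = 0.0893) and 6 h (0.64, adjusted p = 0.0792; 0.0495 with the block, 0.0353 to 0.303 over all alternatives). The 1 h call was lost without control 1 h replicate 1 or 3 or RNAi 1 h replicate 1 or 2 or 3 (adjusted p = 0.0523 to 0.146). Of the 8 astrocyte markers, 5 were called higher with RNAi over the average of times (Gfap, Slc1a2, S100b, Gja1 and Aldoc), none lower. Of all genes, 20.9% were called higher and 16.6% lower there. At 6 h of KCl Gfap was called lower in both arms and the other 7 markers were not called. Of all genes, 25.3% were called lower in the RNAi arm and 25.5% in the control arm. The part of astrocytes in the Hspb1 differences was not tested.

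Hspd1 (HSP60) and Hspe1 (HSP10) together form the mitochondrial chaperonin. Hspd1 signals in RNAi arrays were 13080, 11782 and 12643 at 0 h, 11779, 11449 and 11774 at 1 h, and 11096, 11018 and 10789 at 6 h. Control-arm signals of Hspd1 were 11712, 10541 and 10645 at 0 h, 10944, 10115 and 10310 at 1 h, and 10318, 9745 and 10283 at 6 h. Hspe1 signals in RNAi arrays were 12992, 12572 and 12204 at 0 h, 13050, 12407 and 12393 at 1 h, and 12940, 12084 and 12073 at 6 h. Control-arm signals of Hspe1 were 11809, 10884 and 11051 at 0 h, 11584, 10694 and 10523 at 1 h, and 11003, 10341 and 11114 at 6 h. The RNAi arrays were above the control arrays of the same time for both genes. For Hspd1 the difference was called at 0 h (log2 difference 0.19, SE 0.06, adjusted p = 0.0353), a call lost without control 0 h replicate 2 or 3 or RNAi 0 h replicate 1 or 3 (adjusted p = 0.0999 to 0.141), and over the average of times, 1.11-fold (adjusted p = 0.0015). For Hspe1 it was called at 1 h (log2 difference 0.21, SE 0.06, adjusted p = 0.0201), at 6 h (log2 difference 0.19, SE 0.06, adjusted p = 0.0295) and over the average, 1.14-fold (adjusted p = 0.000327). The Hspe1 calls were lost without control 1 h replicate 2 or 3 or RNAi 1 h replicate 1 (adjusted p = 0.0681 to 0.0853) for the first and without control 6 h replicate 2 or RNAi 6 h replicate 1 or 3 (adjusted p = 0.0502 to 0.127) for the second. After 6 h of KCl Hspd1 was lower in the RNAi arm (log2 difference -0.19, SE 0.06, adjusted p = 0.0152), a call lost without RNAi 0 h replicate 1 or RNAi 6 h replicate 3 (adjusted p = 0.0524 to 0.0584), and the control-arm difference was -0.12 (95% interval -0.24 to 0.01). Dnaja1, another HSP40 co-chaperone, averaged 8093 ± 201 at 6 h and 7309 ± 190 at 0 h in the RNAi arm, and 8126 ± 131 at 6 h and 7405 ± 174 at 0 h in the control arm (SD, n = 3). Its rises of 0.15 in the RNAi arm (adjusted p = 0.0201) and 0.13 in the control arm (adjusted p = 0.0312) depend on the probe set, since a second one was lower at 6 h (-0.28, adjusted p = 0.000647, and -0.27, adjusted p = 0.000732). The calls were lost without RNAi 0 h replicate 1 or RNAi 6 h replicate 1 or 2 (adjusted p = 0.0587 to 0.0651) for the first and without control 0 h replicate 2 or 3 or control 6 h replicate 1 or 2 (adjusted p = 0.0517 to 0.117) for the second.

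The second question was which of these genes differ in level when MEF2 is knocked down. Across the 3 times, Edem1, Hspb1 and Ppp1r15a were higher with RNAi by 1.09, 0.69 and 0.57 on the log2 scale, smaller rises were called for Hsf1, Eif2ak3, Sesn2, Dnajb9, Canx, Hspe1, Ddit3, Hspd1, Dnajb1 and Chac1, and Asns and Ddit4 were lower. That is 13 members called higher and 2 lower over the average of times, against 20.9% and 16.6% of all genes. At 0 h 7 were higher and 1 lower with RNAi, against 8.66% and 6.19% of all genes. At 1 h 6 were higher and 0 lower, against 7.98% and 9.12%, and at 6 h 5 were higher and 2 lower, against 8.67% and 8.55%. These comparisons share their arrays with the KCl comparisons. The size of the Edem1 difference depends on the probe set. The second one gave 0.23 over the average of times, was called at 1 h (0.31) and was not called at 0 h (0.22) or 6 h (0.14). The share of all genes called with the replicate block is not given here. The block gave 10 higher and 1 lower at 0 h, 9 and 2 at 1 h, and 10 and 4 at 6 h. It added Dnajb9, Sesn2 and Hspe1 at 0 h (adjusted p = 0.0152 to 0.028 with the block, 0.0501 to 0.0726 without it, and 0.0109 to 0.286 over all alternatives). It added Ddit3, Ppp1r15a, Asns, Ddit4 and Hspd1 at 1 h (adjusted p = 0.0212 to 0.0341 with the block, 0.0615 to 0.198 without it, and 0.0094 to 0.449 over all alternatives). At 6 h it added Eif2ak3, Atf6, Hsf1, Sdf2l1, Sel1l, Asns and Hspb1 (adjusted p = 0.0308 to 0.0495 with the block, 0.0699 to 0.196 without it, and 0.0308 to 0.479 over all alternatives), and over the average Atf6 as lower and Sel1l and Hsph1 as higher (adjusted p = 0.0143 to 0.0357 with the block, 0.0527 to 0.169 without it, and 0.00536 to 0.314 over all alternatives). A fit of only the 2 groups compared left 1 of the 8 members called at 0 h, and leaving out any 1 of the 6 arrays of 0 h gave counts of 3 to 5, members not called in the full fit included. At 1 h 3 were left without control 1 h replicate 3 or RNAi 1 h replicate 2, and at 6 h 3 without RNAi 6 h replicate 1 or 3 and 4 without replicate 2. Besides the astrocyte markers, Tubb3, Map2 and Nefm of the 10 neuron markers were called lower with RNAi over the average and Snap25 higher, and Cldn5, Kdr and Dcn of the 6 endothelial and fibroblast markers tested were lower. Their part in these differences was not tested. The call of Chac1 over the average of times was lost when any of 14 of the 18 arrays was left out (adjusted p = 0.0513 to 0.0925), all but control 0 h replicate 3, RNAi 0 h replicate 2, RNAi 1 h replicate 1 and RNAi 6 h replicate 3.

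**Figure D5:**
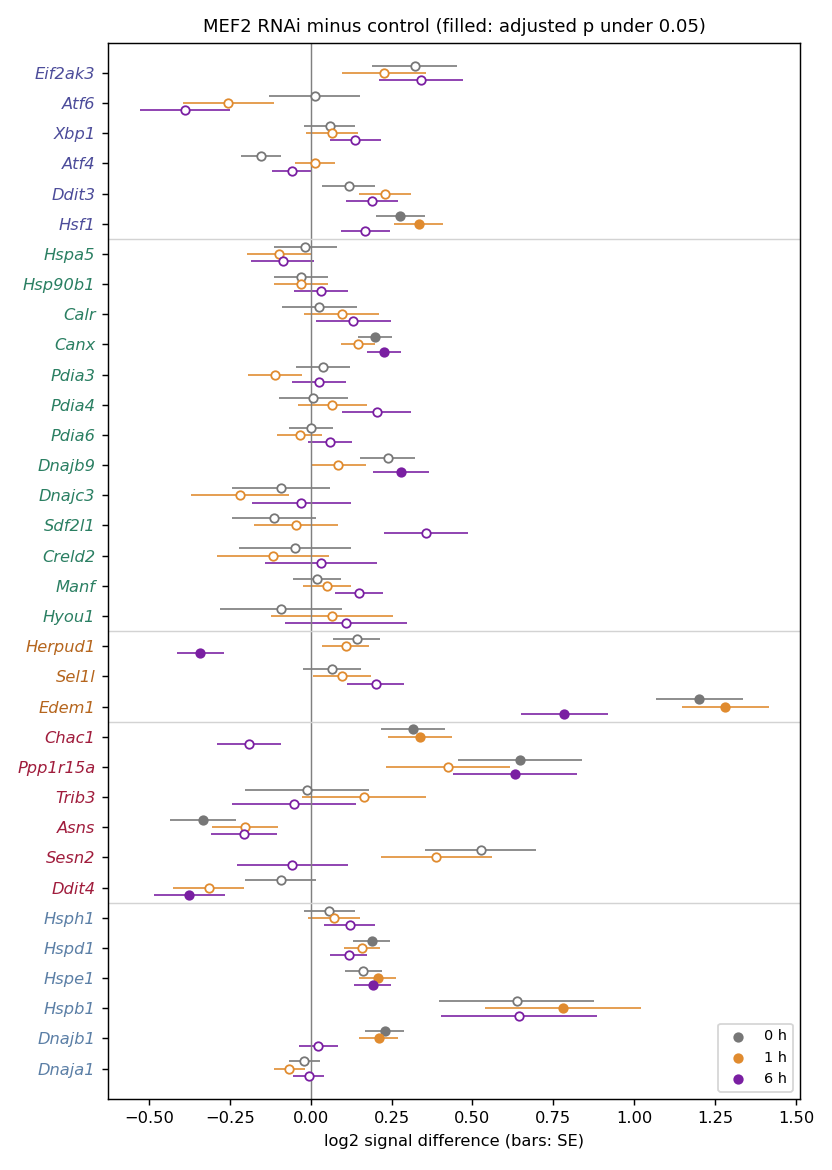
Log2 signal difference of RNAi minus control (x axis, bars are standard errors) at 0, 1 and 6 h of KCl for the 34 members with a value, in the order of roles used above. Filled points passed an adjusted p of 0.05. Edem1, by the probe set used, lies farthest right at every time, from 0.78 at 6 h to 1.28 at 1 h, and Herpud1 moves to -0.34 at 6 h.

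Whether MEF2 RNAi altered the response to KCl itself was tested as an interaction, RNAi-arm response minus control-arm response. No member was called at 1 h or at 6 h by limma, where 0% and 0.119% of all genes were called. At an unadjusted p under 0.05 there were 0 members at 1 h, against 3.32% of all genes, and 6 at 6 h (17.6%), against 8.24% of all genes. Those 6 are Herpud1 (-0.48), Chac1 (-0.51), Sesn2 (-0.58), Edem1 (-0.42), Dnajb1 (-0.21) and Sdf2l1 (0.47), by the probe sets used. Second probe sets gave -0.08 for Edem1 (limma, adjusted p = 0.9445) and -0.07 for Dnajb1 (adjusted p = 0.9748). With the replicate block 1 member, Herpud1, passed at 6 h and none at 1 h. The intervals stay wide: for Ppp1r15a the 6 h interaction was -0.01 with a 95% interval of -0.59 to 0.56, and for Atf4 it was 0.10 with -0.09 to 0.28.

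Other genes of these pathways were taken from lists of 122 genes, of which 114 were tested. At 6 h, 31 (27.2%) were called higher and 19 (16.7%) lower in the RNAi arm, against 14.7% and 25.3% of all genes. In the control arm 33 (28.9%) were higher and 23 (20.2%) lower, against 16.1% and 25.5% of all genes. The same shares of all genes are the background of each list that follows. The lists were chosen with earlier results of these data known, so their shares describe the lists and are not a test. Of the 26 known targets of Atf4 and the integrated stress response among them, 15 were higher and 1 lower in each arm, where 14.7% and 16.1% of all genes were higher and 25.3% and 25.5% lower in the RNAi and control arms. Atf3, a stress-induced transcription factor, read 969, 1101 and 1203 at 6 h against 453, 410 and 740 at 0 h in the RNAi arm, and 1859, 2263 and 2397 against 405, 374 and 366 in the control arm, without overlap. Its control-arm difference at 6 h was 2.50 (SE 0.20, adjusted p = 1.27e-07), and at 1 h it was 1.95 (adjusted p = 1.65e-05). At 6 h Atf3 was lower with RNAi (-0.99, adjusted p = 0.00326). The difference between the 6 h responses of the arms did not pass the test for any of the 26 genes, Atf3 included. Cebpb, a partner of Atf4, differed by 1.52 in the RNAi arm and 1.80 in the control arm at 6 h, and Wars1, a tRNA synthetase, by -0.21 and -0.29; all of these were called.

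Further genes of ER-associated degradation were called in both directions at 6 h, with 3 of 14 higher and 4 lower in the RNAi arm (14.7% and 25.3% of all genes) and 3 higher and 5 lower in the control arm (16.1% and 25.5%). Derl2, part of the channel that returns proteins to the cytosol, read 466, 421 and 434 at 6 h against 948, 958 and 1024 at 0 h in the RNAi arm, and 407, 368 and 339 against 989, 887 and 813 in the control arm. The log2 differences were -1.15 in the RNAi arm (adjusted p = 3.04e-08) and -1.27 in the control arm (adjusted p = 1.27e-08), without overlap. Edem2, a mannosidase, differed by -1.06 and -1.18 in the same order of arms, whereas the ubiquitin-conjugating enzymes Ube2j1 (0.80 and 0.77) and Ube2g2 (0.39 and 0.38) were higher. Among 23 genes of ER folding and translocation, 3 were higher and 6 lower in the RNAi arm and 3 higher and 8 lower in the control arm, beside the same shares of all genes. Dnajc10, an ER reductase, differed by -0.73 in the RNAi arm and -0.89 in the control arm, Cnpy2 by -0.51 and -0.77, and the translocon gene Sec61a1 by 0.24 and 0.27; each was called. Sec63 was called in the control arm (0.46) and not in the RNAi arm (0.19), and the difference between these responses did not pass the test (-0.26, adjusted p = 0.824).

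The regulators of the response held 3 of 14 genes higher and 4 lower at 6 h in each arm, against 14.7% and 25.3% of all genes in the RNAi arm and 16.1% and 25.5% in the control arm. Ppp1r15b, the constitutive partner of the eIF2 phosphatase, differed by 0.70 in the RNAi arm and 0.62 in the control arm, and was higher with RNAi over the average of times (0.62, adjusted p = 1.34e-07). Mbtps2, a protease that cleaves Atf6, differed by -0.82 and -0.50 and was lower with RNAi (-0.50, adjusted p = 1.03e-07). Creb3, an ER-bound transcription factor, was higher (0.29 and 0.35), and Eif2ak4, the eIF2 kinase that senses amino acids, was lower (-0.67 and -0.46). Of 37 further heat shock and cytosolic chaperone genes, 7 were higher and 4 lower in the RNAi arm at 6 h, and 9 higher and 5 lower in the control arm, beside the same shares of all genes. Hspa4l, a relative of Hsph1, read 2447, 2462 and 2565 at 6 h against 889, 984 and 1154 at 0 h in the RNAi arm, and 2587, 2516 and 2634 against 910, 822 and 736 in the control arm, without overlap, and differed by 1.31 and 1.65. Trap1, the mitochondrial HSP90, was lower in the RNAi arm (-0.93) and in the control arm (-0.89). Hspa2 (0.80) and Dnajb5 (-0.50) were called in the control arm and not in the RNAi arm (0.13 and -0.21), and the difference between arms did not pass the test for either.

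Without the block and by the probe set used, 9 of the 34 members were called in no comparison: Hspa5, Hsp90b1, Calr, Pdia3, Pdia4, Creld2, Manf, Hyou1 and Trib3. How many of all genes were called in no comparison is not given here, so the count of 9 has no background beside it. All of the 9 but Trib3 are ER chaperones or folding enzymes. Across the 18 arrays their signals ran from 7729 to 10959 for Hspa5, 5826 to 7262 for Hsp90b1, 3738 to 5611 for Calr and 4259 to 5509 for Pdia3.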

How the data were processed

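RNA of 18 samples of cultured rat hippocampal neurons was read on Affymetrix arrays. The values are the authors' deposited signal intensity per probe set on a linear scale; array medians are nearly equal, and the summarisation and normalization are not given in the sources used here. Symbols came from the platform annotation. Signals were raised to a floor, the 20th percentile of the table (72.6), and log2-transformed. The brightest probe set per symbol was kept, then those above the 40th percentile of their own array on at least 3 arrays were tested. All 6 groups entered 1 fit in limma 3.58.1 (R 4.3.3; 12 residual degrees of freedom), with Benjamini-Hochberg adjustment over 10934 genes, separately for each of 11 comparisons. Second probe sets of a gene were tested in a fit of all 19567 probe sets that passed the filter, and adjusted over them. The scripts were tested on simulated data with independent noise on each array and changes in the control 6 h group only. Paired arrays, the replicate block and the interactions were not part of that simulation.

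The members and gene lists were chosen with earlier results of these data known. Members were given on every array where they were called with KCl at a log2 difference of 0.5 or more, or called in any comparison of RNAi with control (20 of 34). Of each further list, up to 2 called rises and 2 called falls at 6 h in the control arm were named, the largest of each. Replicate numbers come from the labels. All 24 pairs of same-numbered arrays in different groups had correlated deviations from their group means (r = 0.174 to 0.737, against a median of -0.24 for different numbers), so the numbers were taken to pair the arrays, and a fit with the number as a block was an alternative. Deviations from a group mean cancel within the group, so positive values for the same number bring negative ones for different numbers. The median of -0.24 is therefore not a separate baseline. The number of arrays limits the precision.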

Additional observations from a re-analysis of the deposited data

How the results depend on the processing

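The alternatives were a floor at the 5th percentile, no floor with 16 added to each signal, quantile normalization, no filter on dim signals, the mean of all probe sets of a gene, limma with an intensity trend and a robust prior, a fit of only the groups compared, the replicate block, and leaving out each array. Of 374 values (34 members in 11 comparisons), 92 were called; 53 of them were called under every alternative run and 39 were lost under at least 1, while 50 uncalled values were called under at least 1. Fitting only the groups compared lowered the count of called members to 2 for 1 h of KCl in the control arm and to 1 for RNAi against control at 0 h. The replicate block gave 11 members for RNAi against control at 1 h, 14 at 6 h, and 1 for the interaction at 6 h. The share of all genes called with the block is not given here. Calls it added are given beside the results, and the cause of these shifts was not tested. Leaving out 1 array gave 2 to 6 members for 1 h of KCl in the control arm, 4 to 5 in the RNAi arm, 14 to 18 at 6 h in the control arm, 11 to 14 in the RNAi arm, and 9 to 14 for 6 h against 1 h. It gave 3 to 5 for RNAi against control at 0 h, 3 to 4 at 1 h, 3 to 9 at 6 h and 13 to 16 over the average of times. With the mean of its probe sets Dnaja1 turned in direction at 6 h, to -0.06455 in the RNAi arm and -0.06787 in the control arm. Quantile normalization shifted the median of all genes by at most 0.03.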

Other observations

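Probe sets of the same gene did not always move together. The dimmer Pdia3 probe set was lower after 6 h of KCl, with log2 differences of -0.55 in the RNAi arm (limma, adjusted p = 0.000505, over 19567 probe sets as for all values here) and -0.54 in the control arm (adjusted p = 0.000532), where the one used gave -0.02 and -0.00. The other 2 Trib3 probe sets were called higher at 6 h in the control arm (0.77, adjusted p = 0.0367, and 0.81, adjusted p = 0.013) and were not called in the RNAi arm (0.52 and 0.37). The difference between these responses did not pass the test for either (-0.25, adjusted p = 0.9418, and -0.44, adjusted p = 0.8194). A second Hsph1 probe set rose by 0.84 in the RNAi arm and 0.55 in the control arm, and a second Dnajb1 probe set by 0.72 and 0.78, all 4 called. Of the 34 members, 24 had 1 probe set and 10 had more.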
